A study of Rattus norvegicus with 6 samples.

Results

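The genes described here drive and guard mitosis: the mitotic cyclins and CDK1, the Polo and Aurora kinases, the spindle checkpoint, the anaphase machinery, the kinetochore, the spindle and cytokinesis apparatus, the condensins and the transcription factors of the programme. They were chosen by name from a list of 54 genes, and 53 of them were found by symbol among the 16849 genes of the deposited count table. The condensin subunit Ncaph was not analysed here. RNA was sequenced from RSC96, a spontaneously transformed line of rat Schwann cells labelled as wild type, so all values describe 1 line. In the PVDF@PDA group the cells were under hypoxia together with a piezoelectric material, and in the PCL@PDA group they were under hypoxia together with a non-piezoelectric one. The hypoxic state was modelled by keeping the cells for 24 h in medium that macrophages had conditioned. The third group is labelled Control only, and the labels do not say which medium it received or whether a material was present, so a difference from Control is one between whole conditions. Each group has 2 libraries, replicate 1 from batch 1 and replicate 3 from batch 3. The description of each PCL@PDA library mentions PVDF@PDA instead, and its title and treatment were taken as right.

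Mitosis is started when cyclin B and CDK1 are switched on by CDC25 phosphatases and by the Aurora A and Polo kinases, and it ends when the anaphase-promoting complex, a ubiquitin ligase, has cyclin B and securin destroyed. Between these steps the spindle checkpoint holds that ligase back until every kinetochore, the protein plate that ties a chromosome to spindle fibres, is attached. Most of these genes are transcribed in G2 and M phase under the MuvB complex with MYBL2 and FOXM1, and in resting cells the DREAM complex keeps many of them silent through a promoter element called CHR, as worked out mainly in human and mouse cells. Schwann cells divide during development and again after nerve injury, when they dedifferentiate, and are otherwise mitotically quiet in the adult nerve.

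Promoter letters were searched in the 250 bases before the annotated gene start, on both strands, as TTTGAA (a common form of the CHR element) and CCAAT (the letters read by the factor NF-Y) and which can share 1 base where they abut. RefSeq promoters of the rat assembly GRCr8 were at hand for 45 of the 53 genes. TTTGAA was present in 25 of them (55.6%), against 15.2% of 19005 protein-coding promoters of the same length. CCAAT was present in 34 (75.6%), against 35.5%, and at least 2 copies in 24 (53.3%), against 10.9%. Both kinds of letters stood in 22 of the 45 (48.9%), against 5.7% of all promoters. A match describes the letters and is not a measured binding site. Shown next are the last 120 bases before the start of 8 genes picked as examples, in the gene's own direction. TTTGAA and CCAAT of either strand are in capitals (TTCAAA and ATTGG are the same letters on the other strand).
Ccnb1: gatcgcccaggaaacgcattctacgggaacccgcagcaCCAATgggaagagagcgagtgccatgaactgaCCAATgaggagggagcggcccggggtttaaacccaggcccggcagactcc
Ccnb2: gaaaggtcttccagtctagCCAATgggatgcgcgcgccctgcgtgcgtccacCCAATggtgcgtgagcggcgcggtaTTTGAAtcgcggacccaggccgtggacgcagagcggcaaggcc
Cdk1: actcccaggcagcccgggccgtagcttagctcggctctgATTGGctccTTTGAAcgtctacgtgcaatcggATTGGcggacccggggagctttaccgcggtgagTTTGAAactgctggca
Cdc20: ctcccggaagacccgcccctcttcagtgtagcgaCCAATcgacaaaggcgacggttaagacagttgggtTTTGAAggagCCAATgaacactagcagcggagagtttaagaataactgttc
Pttg1: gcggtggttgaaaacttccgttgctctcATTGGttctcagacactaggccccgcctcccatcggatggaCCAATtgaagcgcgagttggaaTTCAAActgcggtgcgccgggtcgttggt
Prc1: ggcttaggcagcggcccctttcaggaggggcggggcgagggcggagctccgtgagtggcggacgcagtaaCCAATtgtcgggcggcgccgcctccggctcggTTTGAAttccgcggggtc
Bub3: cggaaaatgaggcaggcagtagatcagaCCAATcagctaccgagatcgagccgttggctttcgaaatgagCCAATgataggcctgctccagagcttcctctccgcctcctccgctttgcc
Mybl2: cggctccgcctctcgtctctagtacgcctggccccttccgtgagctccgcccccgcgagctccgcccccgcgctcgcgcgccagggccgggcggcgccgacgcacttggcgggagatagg
The stretches lie, in GRCr8, for Ccnb1 at chr2:33655226-33655345 (minus strand), Ccnb2 at chr8:79981659-79981778 (minus strand), Cdk1 at chr20:19265173-19265292 (plus strand), Cdc20 at chr5:137255800-137255919 (minus strand), Pttg1 at chr10:28406327-28406446 (minus strand), Prc1 at chr1:143659361-143659480 (plus strand), Bub3 at chr1:195760412-195760531 (plus strand) and Mybl2 at chr3:172124685-172124804 (plus strand). Cyclin B2, CDK1, Cdc20, Pttg1 and Prc1 thus carried both kinds of letters within the printed stretch. Ccnb1 and Bub3 had paired CCAAT letters and no TTTGAA in the window searched, and Mybl2 had neither. As picked examples, these 8 genes do not show how the letters relate to the differences over all 45.

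Between 32760123 and 35389307 reads were counted per library. All 53 genes passed the filter on low counts, with 441 to 29815 counts per gene and library, far above the level of 3 counts (0.0861 to 0.0911 CPM, counts scaled to a common library size) taken as the limit of detection. The PCL@PDA libraries differed from each other more than those of the other groups, as chi-square over its degrees of freedom came to 10.21 in that pair, 4.80 in the PVDF@PDA pair and 5.56 in the Control pair. Of 14 Schwann cell markers, the myelin and glial genes Mbp, Ngfr, Cdh19, Pou3f1 and S100b were at or near 0 in every library (at most 0.842 CPM), while Ncam1 (101 to 138 CPM), Sox2 (47.6 to 64.5) and Pmp22 (41.9 to 56.6) were read in all. Their summed level was 271 and 272 CPM in PVDF@PDA, 272 and 252 in PCL@PDA and 242 and 251 in Control. Macrophage markers summed to 6.07 and 6.34 CPM in PVDF@PDA, 5.96 and 5.08 in PCL@PDA and 6.33 and 6.66 in Control over the 8 of 13 analysed, most of it from Cd14. The defining leukocyte gene Ptprc had 0 counts in 5 libraries and 1 count in Control replicate 3. Fibroblast markers, 5 of 6 analysed, summed to 808 and 828 CPM in PVDF@PDA, 813 and 836 in PCL@PDA and 855 and 860.2 in Control, with Dcn at or near 0, Pdgfra and Col1a1 called higher than Control in both material groups and Col1a2 called lower. The part of these markers in the results was not tested.

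The mitotic genes as a group were lower in both material conditions than in Control. Together they took 0.555% and 0.558% of all counts in the PVDF@PDA libraries, 0.562% and 0.524% in the PCL@PDA libraries and 0.730% and 0.718% in the Control libraries. By edgeR's quasi-likelihood test with Benjamini-Hochberg adjustment over all 13018 genes tested, 48 of the 53 fell with PVDF@PDA and 0 rose, where 8.9% of all tested genes were called lower and 6.79% higher. The gene with a positive difference in that comparison was Mybl2 (adjusted p = 0.632). With PCL@PDA 47 fell and 1 rose, where 11.3% of all tested genes were called lower and 8.77% higher. The median difference of the 53 genes was -0.42 on the log2 scale with PVDF@PDA and -0.45 with PCL@PDA (a level 26.9% lower), while the median of all tested genes was 0.01 in each comparison. Both comparisons use the same Control libraries and are not independent of each other. In this bulk RNA, fewer cells in G2 and mitosis and less of these transcripts per cell cannot be told apart.

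Single libraries showed the same separation. Both PVDF@PDA libraries lay below both Control libraries for 52 of the 53 genes, where 29.2% of all tested genes did so. Both PCL@PDA libraries lay below both Control libraries for 48, where 27.8% of all tested genes did so. Within batch 1 the median log2 difference was -0.41 with PVDF@PDA and -0.41 with PCL@PDA, and within batch 3 it was -0.45 and -0.47. The difference was below 0 in both batches for 52 genes with PVDF@PDA and for 50 with PCL@PDA. Scaled by library totals alone, without the TMM factors, 43 genes fell with PVDF@PDA and 45 with PCL@PDA, where the calls over all genes were 1164 higher and 879 lower with PVDF@PDA (884 and 1158 with TMM) and 1482 higher and 1070 lower with PCL@PDA (1142 and 1474 with TMM).

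**Figure D1:**
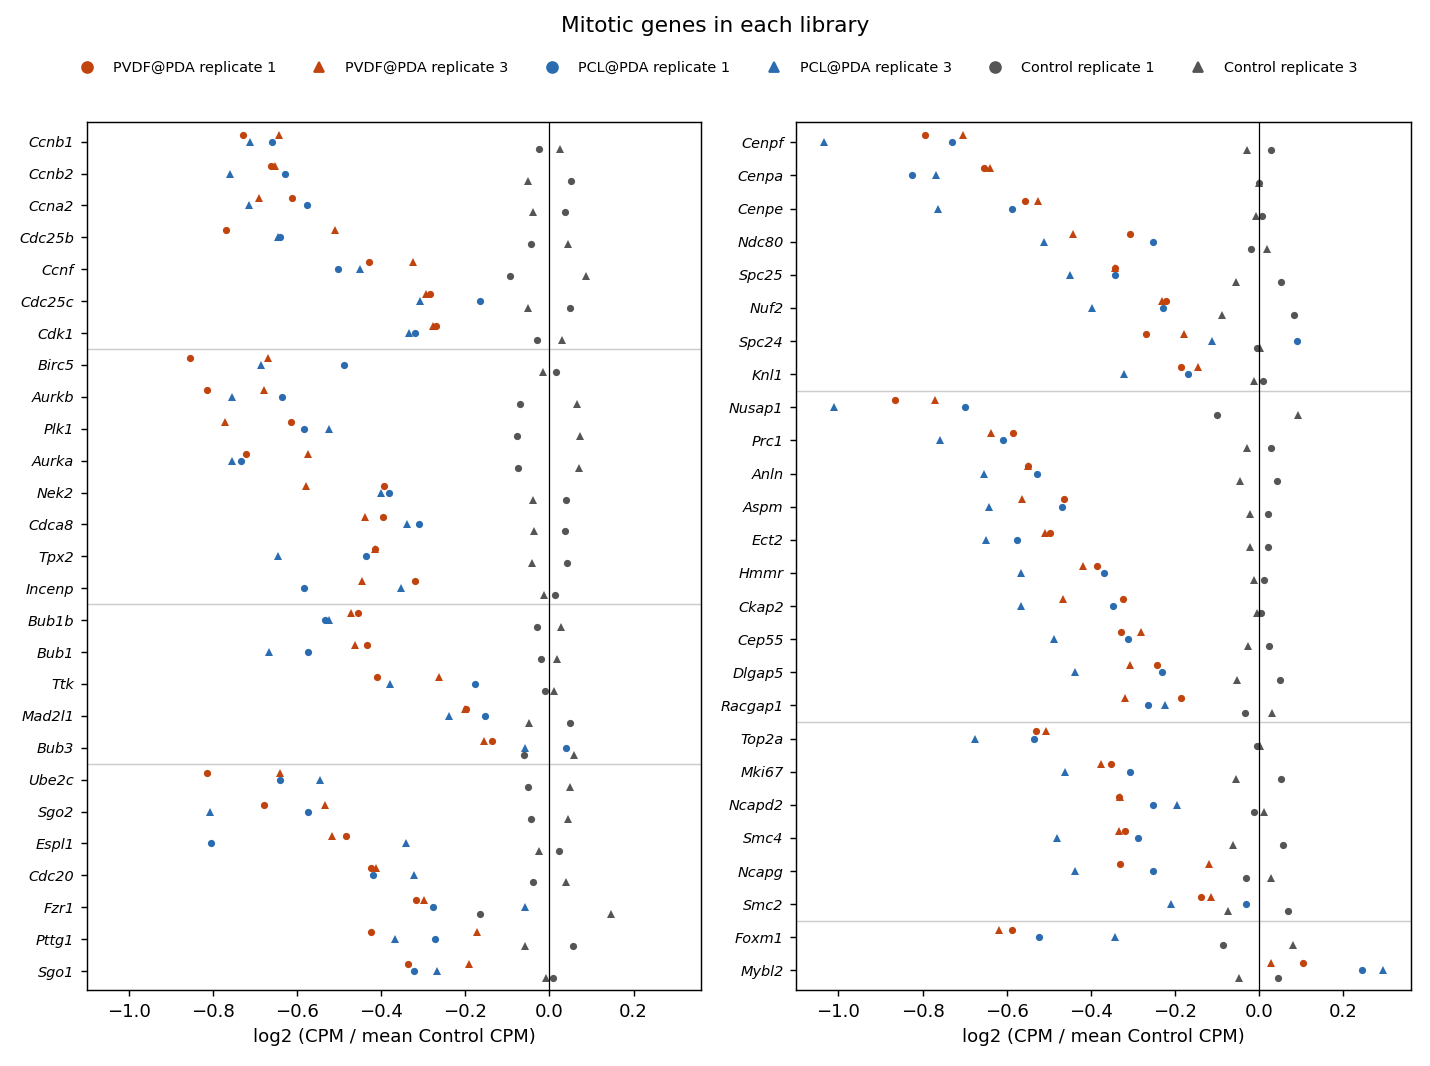
Level of each of the 53 mitotic genes in each library as log2 of its TMM-scaled CPM over the mean Control CPM (horizontal axis), genes grouped by role, circles for replicate 1 and triangles for replicate 3. Nearly all PVDF@PDA (orange) and PCL@PDA (blue) points lie left of the Control points (grey), with Cenpf in PCL@PDA replicate 3 farthest left, and Mybl2 lies to the right in PCL@PDA.

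The cyclins, CDK1 and CDC25 phosphatases fell in all 7 cases with PVDF@PDA and in 6 of 7 with PCL@PDA. Their median log2 differences were -0.63 and -0.64. Of all tested genes, 8.9% were called lower with PVDF@PDA and 11.3% with PCL@PDA. Levels are TMM-scaled CPM, with replicate 1 before replicate 3 of each group. Ccnb1 (gene ID 25203), the cyclin that brings CDK1 to activity at mitotic entry, was read at 179.6 and 190.3 CPM in PVDF@PDA, 188 and 182 in PCL@PDA and 292 and 303 in Control. Neither material group overlapped Control, and the log2 difference was -0.69 (SE 0.06, adjusted p = 3.59e-14) with PVDF@PDA and -0.69 (SE 0.06, adjusted p = 2.51e-14) with PCL@PDA. Ccnb2 (gene ID 363088), the second B-type cyclin, stood at 29.9 and 30.2 CPM in PVDF@PDA, 30.7 and 28.0 in PCL@PDA and 49.1 and 45.7 in Control, again with no overlap (-0.66, SE 0.09, adjusted p = 2.88e-07, and -0.69, SE 0.09, adjusted p = 6.02e-08). Ccna2 (gene ID 114494), which serves both S phase and mitotic entry, stood at 69.8 and 66.1 CPM in PVDF@PDA, 71.5 and 64.99 in PCL@PDA and 109 and 104 in Control. It fell by about as much as the B cyclins (-0.65, SE 0.07, adjusted p = 1.96e-10, and -0.64, SE 0.07, adjusted p = 1.86e-10).

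Cdk1 (gene ID 54237), the kinase these cyclins activate, showed a smaller difference than they did, at 89.4 and 89.0 CPM in PVDF@PDA, 86.3 and 85.5 in PCL@PDA and 106 and 109.9 in Control (-0.27, SE 0.06, adjusted p = 0.00152, and -0.33, SE 0.06, adjusted p = 0.000111). By FPKM (fragments scaled for transcript length and depth, as deposited), Ccnb1 had 0.80 and 0.85 times the level of Cdk1 in PVDF@PDA, 0.87 and 0.85 times in PCL@PDA and 1.10 and 1.10 times in Control, so the ratio lay below 1 in the material libraries and above 1 in Control. Cdc25b, a phosphatase that removes the inhibitory phosphates of CDK1, had log2 differences of -0.63 (adjusted p = 2.82e-07) and -0.64 (adjusted p = 1.43e-07). Ccnf, a cyclin-like F-box protein that marks targets for destruction, had -0.38 (adjusted p = 0.000767) and -0.48 (adjusted p = 1.88e-05). Cdc25c, the second such phosphatase on the list, was called lower with PVDF@PDA (-0.29, adjusted p = 0.0206) and not called with PCL@PDA (-0.24, adjusted p = 0.0569), where the fit with the batch as a replicate block gave adjusted p = 0.0383 and the fit without PCL@PDA replicate 1 gave 0.0175. Its PVDF@PDA call was lost without PVDF@PDA replicate 1 (adjusted p = 0.105), PVDF@PDA replicate 3 (0.129) or Control replicate 1 (0.216), and the PVDF@PDA call of Ccnf was lost without Control replicate 3 (0.0748).

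**Figure D2:**
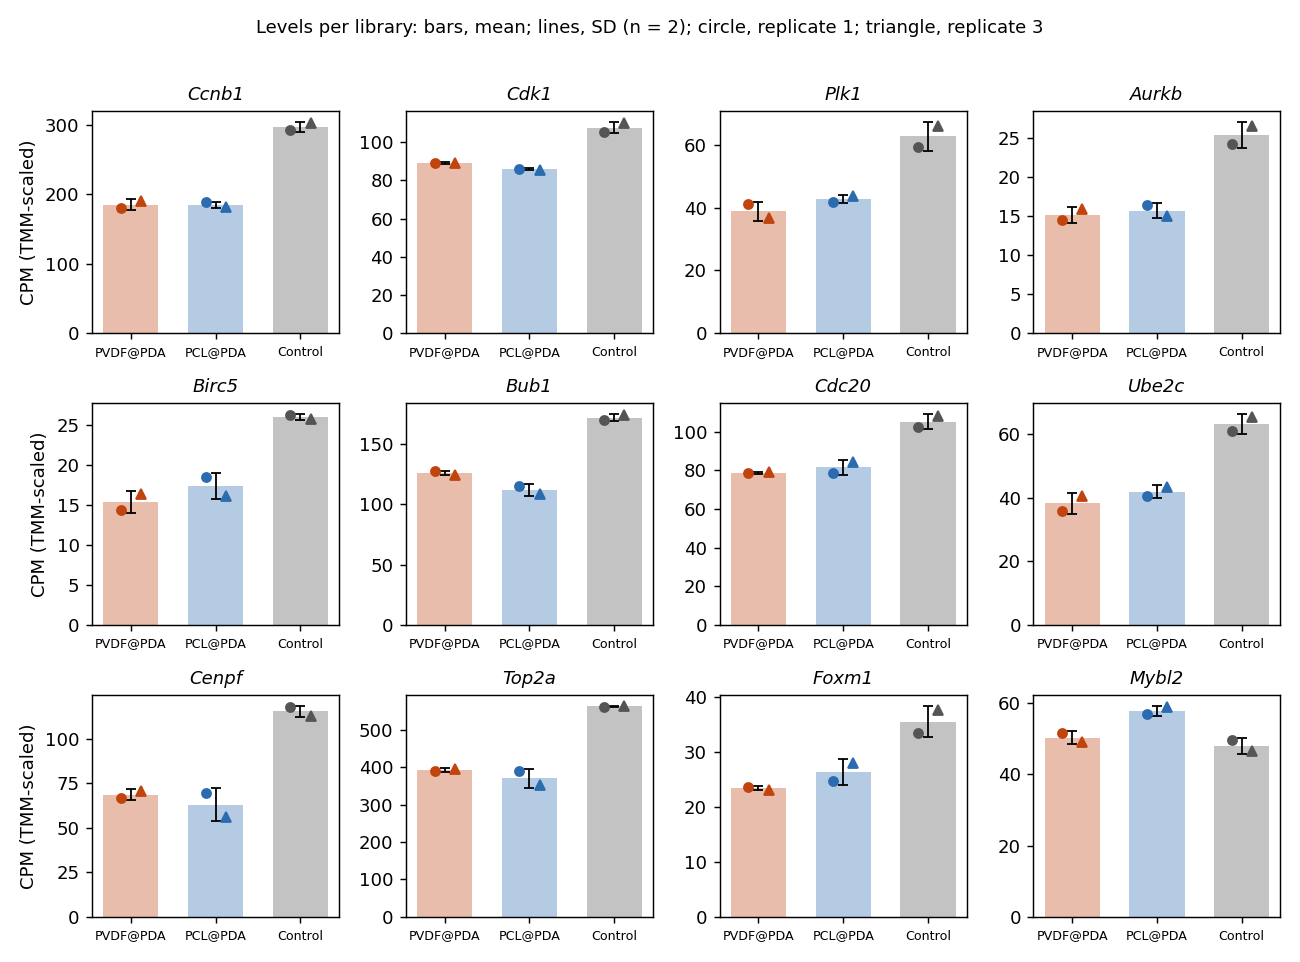
TMM-scaled CPM (vertical axes, from 0) of 12 mitotic genes in PVDF@PDA, PCL@PDA and Control, with bars for the mean of 2 libraries, lines for the SD and points for the libraries. For 11 of these 12 chosen genes every material library lies below both Control libraries, as for 48 of all 53. With PVDF@PDA alone 29.2% of all tested genes lie so, and with PCL@PDA alone 27.8%. For Mybl2 the highest values are those of PCL@PDA, and Bub3, Spc24 and Fzr1 are not drawn.

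The Polo and Aurora kinases, the chromosomal passenger complex and their cofactors fell in all 8 cases in each comparison. Their median log2 differences were -0.57 with PVDF@PDA and -0.55 with PCL@PDA. The shares of all tested genes called lower were 8.9% with PVDF@PDA and 11.3% with PCL@PDA. Plk1 (gene ID 25515), the Polo kinase of mitotic entry and spindle assembly, was read at 41.1 and 36.8 CPM in PVDF@PDA, 42.0 and 43.8 in PCL@PDA and 59.6 and 66.2 in Control. Its groups did not overlap Control (-0.69, SE 0.08, adjusted p = 8.22e-09, and -0.55, SE 0.08, adjusted p = 9.1e-07). Aurka (gene ID 261730), the Aurora kinase of the spindle poles, stood at 30.3 and 33.5 CPM in PVDF@PDA, 30.1 and 29.6 in PCL@PDA and 47.5 and 52.5 in Control (-0.65, SE 0.09, adjusted p = 3.18e-07, and -0.74, SE 0.09, adjusted p = 8.22e-09). Tpx2, the cofactor that activates Aurora A on the spindle, stood at 199 and 199 CPM in PVDF@PDA, 196 and 169 in PCL@PDA and 272 and 257 in Control, with PCL@PDA replicate 3 the lowest (-0.42, adjusted p = 5.17e-07, and -0.54, adjusted p = 7.31e-10).

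Aurkb, Incenp, Birc5 and Cdca8 encode the passenger complex, which corrects faulty attachments at the centromere and later acts at the midzone. Aurkb (gene ID 114592), its kinase, had 14.5 and 15.9 CPM in PVDF@PDA, 16.4 and 15.1 in PCL@PDA and 24.2 and 26.6 in Control (-0.75, SE 0.12, adjusted p = 5.85e-06, and -0.69, SE 0.12, adjusted p = 1.58e-05). Birc5 (gene ID 64041), or survivin, had 14.4 and 16.3 CPM in PVDF@PDA, 18.5 and 16.1 in PCL@PDA and 26.2 and 25.7 in Control (-0.76, SE 0.12, adjusted p = 3.51e-06, and -0.58, SE 0.12, adjusted p = 0.000200). Within batch 1 its log2 difference was -0.87 with PVDF@PDA and -0.50 with PCL@PDA, and within batch 3 it was -0.66 and -0.67. Both subunits thus lay below Control in every material library. The scaffold Incenp (-0.38, adjusted p = 0.00110, and -0.46, adjusted p = 6.03e-05) and the borealin gene Cdca8 (-0.42, adjusted p = 1.15e-05, and -0.32, adjusted p = 0.000429) showed smaller differences, as did Nek2, a centrosome kinase (-0.48, adjusted p = 2.06e-05, and -0.39, adjusted p = 0.000418). Incenp was not called with PVDF@PDA when PVDF@PDA replicate 3 was left out (adjusted p = 0.0560). Aurka overlaps the counted gene Fam210b. It is 1 of 8 of the 53 genes that overlap another counted gene (with Cdc25c, Sgo2, Spc25, Anln, Nusap1, Ncapg and Foxm1), and as the counting strand is not given, their values are uncertain by what reads the neighbour may add.

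The spindle checkpoint genes fell in 4 of 5 cases in each comparison, where 8.9% (PVDF@PDA) and 11.3% (PCL@PDA) of all tested genes fell. Bub3 was the one not called. Bub1 (gene ID 296137), a checkpoint kinase that also marks the inner centromere, stood at 127 and 125 CPM in PVDF@PDA, 115 and 108 in PCL@PDA and 169.5 and 174 in Control. All material libraries lay below Control (-0.45, SE 0.06, adjusted p = 7.93e-08, and -0.62, SE 0.06, adjusted p = 7.95e-12). Bub1b (gene ID 171576), which encodes BubR1 of the checkpoint complex that blocks Cdc20, stood at 50.7 and 50.2 CPM in PVDF@PDA, 48.1 and 48.4 in PCL@PDA and 68.2 and 71.0 in Control (-0.46, SE 0.08, adjusted p = 7.34e-06, and -0.53, SE 0.08, adjusted p = 3.95e-07). Ttk (gene ID 315852), the Mps1 kinase at the top of the checkpoint, had 61.5 and 68.0 CPM in PVDF@PDA, 72.2 and 62.7 in PCL@PDA and 81.1 and 82.2 in Control (-0.33, SE 0.07, adjusted p = 0.000777, and -0.27, SE 0.07, adjusted p = 0.00489). Mad2l1 (gene ID 297176), the Mad2 subunit that binds Cdc20, had 88.2 and 88.0 CPM in PVDF@PDA, 91.0 and 85.7 in PCL@PDA and 105 and 97.8 in Control, the smallest difference among the 4 called (-0.20, SE 0.07, adjusted p = 0.0278, and -0.20, SE 0.07, adjusted p = 0.0256).

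Bub3 (gene ID 361662), the adaptor that carries Bub1 and BubR1 to the kinetochore, was read at 66.6 and 65.7 CPM in PVDF@PDA, 75.2 and 70.3 in PCL@PDA and 70.2 and 76.2 in Control. The PCL@PDA libraries overlapped Control, and the differences were -0.15 (95% interval -0.29 to -0.0026, adjusted p = 0.168) with PVDF@PDA and -0.0094 (-0.15 to 0.13, adjusted p = 0.951) with PCL@PDA. With library totals alone the sign with PCL@PDA was positive (0.03), as it was without PCL@PDA replicate 3 (0.03) or Control replicate 3 (0.05). The call of Mad2l1 with PVDF@PDA was lost without PVDF@PDA replicate 1 (adjusted p = 0.139), PVDF@PDA replicate 3 (0.161) or Control replicate 1 (0.311) and that with PCL@PDA without PCL@PDA replicate 3 (0.113) or Control replicate 1 (0.316). With library totals alone Mad2l1 was not called either (adjusted p = 0.0740 with PVDF@PDA and 0.0834 with PCL@PDA). Ttk was not called with PVDF@PDA without PVDF@PDA replicate 1 (0.0565), nor with PCL@PDA without PCL@PDA replicate 3 (0.0942).

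Among the anaphase genes 6 of 7 fell in each comparison, where 8.9% (PVDF@PDA) and 11.3% (PCL@PDA) of all tested genes fell. Fzr1 did not pass the test in either. Cdc20 (gene ID 64515), the activator that turns the anaphase-promoting complex on once the checkpoint is satisfied, stood at 78.4 and 79.0 CPM in PVDF@PDA, 78.7 and 84.2 in PCL@PDA and 102 and 108 in Control. Its material libraries all lay below Control (-0.42, SE 0.07, adjusted p = 3.49e-06, and -0.37, SE 0.07, adjusted p = 2.62e-05). Ube2c (gene ID 296368), the ubiquitin-conjugating enzyme that works with the complex, had 36.02 and 40.6 CPM in PVDF@PDA, 40.6 and 43.4 in PCL@PDA and 61.1 and 65.6 in Control, the largest difference of this class with PVDF@PDA (-0.72, SE 0.08, adjusted p = 2.54e-09, and -0.59, SE 0.08, adjusted p = 2.07e-07). Fzr1 (gene ID 314642), the Cdh1 activator that keeps the complex on after mitosis and in G1, had 20.5 and 20.8 CPM in PVDF@PDA, 21.1 and 24.6 in PCL@PDA and 22.8 and 28.3 in Control. The Control libraries were far apart, PCL@PDA replicate 3 lay between them, and the differences were -0.31 (SE 0.12, adjusted p = 0.0583) and -0.16 (SE 0.11, adjusted p = 0.354). With the batch as a replicate block its PVDF@PDA difference passed (adjusted p = 0.0347), as it did without PCL@PDA replicate 1 (0.0205), PCL@PDA replicate 3 (0.0213) or Control replicate 1 (0.0205).

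Sister chromatids part when securin (Pttg1) is destroyed and separase (Espl1) cuts cohesin, which shugoshins (Sgo1 and Sgo2) shield until then. Pttg1 (gene ID 64193) stood at 53.7 and 63.9 CPM in PVDF@PDA, 59.7 and 55.9 in PCL@PDA and 74.8 and 69.2 in Control (-0.29, SE 0.08, adjusted p = 0.00615, and -0.32, SE 0.08, adjusted p = 0.00223). Espl1 (gene ID 315330) stood at 24.8 and 24.2 CPM in PVDF@PDA, 19.8 and 27.4 in PCL@PDA and 35.2 and 34.1 in Control, with the PCL@PDA pair the most scattered (-0.50, SE 0.11, adjusted p = 0.000889, and -0.55, SE 0.11, adjusted p = 0.000196). Neither gene overlapped Control in a material library. Sgo2 had log2 differences of -0.60 (adjusted p = 1.05e-07) and -0.69 (adjusted p = 3.47e-09), and Sgo1 smaller ones of -0.26 (adjusted p = 0.0421, and 0.0919 with library totals alone) and -0.29 (adjusted p = 0.0161). Leaving out any library of the comparison ended the PVDF@PDA call of Sgo1 (adjusted p = 0.357 for PVDF@PDA replicate 1, 0.0645 for PVDF@PDA replicate 3, 0.186 for Control replicate 1 and 0.143 for Control replicate 3), and its PCL@PDA call was lost without Control replicate 1 (0.109) or Control replicate 3 (0.0714). Pttg1 lost its PVDF@PDA call without PVDF@PDA replicate 1 (-0.18, adjusted p = 0.296) or Control replicate 1 (0.126), and its PCL@PDA call without Control replicate 1 (0.0723). Sgo2 overlaps Kctd18, which had a mean of 1697 counts per library.

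Of the centromere and kinetochore genes 7 of 8 fell in each comparison, where 8.9% (PVDF@PDA) and 11.3% (PCL@PDA) of all tested genes fell. Spc24 was the one not called. Cenpa (gene ID 298850), the histone H3 variant that marks the centromere, had the lowest FPKM of all 53 genes in Control (3.99 ± 0.0198, SD, n = 2) and stood at 14.4 and 14.5 CPM in PVDF@PDA, 12.8 and 13.3 in PCL@PDA and 22.6 and 22.6 in Control (-0.65, SE 0.12, adjusted p = 0.000112, and -0.80, SE 0.13, adjusted p = 2.65e-06). Cenpf (gene ID 257649), a large outer kinetochore protein of G2 and M phase, stood at 66.5 and 70.8 CPM in PVDF@PDA, 69.5 and 56.3 in PCL@PDA and 118 and 113 in Control (-0.75, SE 0.07, adjusted p = 2.06e-10, and -0.87, SE 0.07, adjusted p = 2.27e-12). Cenpe (gene ID 362044), the kinesin that moves chromosomes to the spindle equator, had 155 and 158 CPM in PVDF@PDA, 151 and 134 in PCL@PDA and 228 and 226 in Control (-0.54, SE 0.06, adjusted p = 5.08e-10, and -0.67, SE 0.06, adjusted p = 4.59e-13). No material library of these 3 genes overlapped Control, and PCL@PDA replicate 3 was the lowest for Cenpf and Cenpe.

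Ndc80 (gene ID 301701), the microtubule-binding subunit of its complex, was read at 68.8 and 62.6 CPM in PVDF@PDA, 71.5 and 59.7 in PCL@PDA and 84.0 and 86.3 in Control (-0.37, SE 0.08, adjusted p = 0.000250, and -0.38, SE 0.08, adjusted p = 0.000182). Its partner Nuf2 had log2 differences of -0.22 (adjusted p = 0.0435) and -0.31 (adjusted p = 0.00311), and Spc25, which ties the complex to the inner kinetochore, had -0.34 (adjusted p = 0.00564) and -0.39 (adjusted p = 0.000988). Spc24 (gene ID 363028), the partner of Spc25, stood at 24.4 and 26.0 CPM in PVDF@PDA, 31.4 and 27.3 in PCL@PDA and 29.4 and 29.5 in Control. The PCL@PDA libraries lay on either side of Control, and neither difference passed (-0.22, 95% interval -0.43 to -0.02, adjusted p = 0.139, and -0.0071, -0.21 to 0.20, adjusted p = 0.973). With PCL@PDA its sign was positive with library totals alone (0.03) and without PCL@PDA replicate 3 (0.09). Knl1, the checkpoint platform of the outer kinetochore, had small differences of -0.16 (adjusted p = 0.0378) and -0.24 (adjusted p = 0.00116). Among these, Knl1 and Nuf2 lost their PVDF@PDA calls with library totals alone (adjusted p = 0.0949 and 0.101) and whenever a PVDF@PDA or Control library was left out, except Nuf2 without Control replicate 3 (adjusted p = 0.115 to 0.258 for Knl1 and adjusted p = 0.159 to 0.469 for Nuf2 over those losses). Nuf2 was not called with PCL@PDA without Control replicate 1 (0.159), nor Spc25 with PVDF@PDA without PVDF@PDA replicate 3 (0.0549) or Control replicate 1 (0.118).

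The spindle and cytokinesis genes fell in all 10 cases in each comparison, where 8.9% (PVDF@PDA) and 11.3% (PCL@PDA) of all tested genes fell. The median log2 differences of this class were -0.45 with PVDF@PDA and -0.51 with PCL@PDA. Prc1 (gene ID 308761), which bundles the microtubules of the midzone, stood at 242 and 233 CPM in PVDF@PDA, 238 and 214 in PCL@PDA and 369.9 and 356 in Control. All material libraries lay far below Control (-0.61, SE 0.06, adjusted p = 1.58e-12, and -0.68, SE 0.06, adjusted p = 2.85e-14). Nusap1 (gene ID 311336), a protein that links microtubules to chromatin, showed the largest difference with PVDF@PDA of all 53 genes, at 43.3 and 46.3 CPM in PVDF@PDA, 48.6 and 39.2 in PCL@PDA and 73.7 and 84.2 in Control (-0.82, SE 0.09, adjusted p = 2.26e-09, and -0.85, SE 0.09, adjusted p = 6.76e-10). It overlaps Ndufaf1, which is also counted. Anln (gene ID 363031), the anillin of the contractile ring, had 259 and 259 CPM in PVDF@PDA, 263 and 241 in PCL@PDA and 390.4 and 368 in Control (-0.55, SE 0.05, adjusted p = 2.85e-11, and -0.59, SE 0.05, adjusted p = 2.27e-12). Ect2 (gene ID 361921), the exchange factor that activates RhoA for furrowing, had 145 and 144 CPM in PVDF@PDA, 137 and 130.4 in PCL@PDA and 208 and 201 in Control (-0.50, SE 0.06, adjusted p = 2.24e-09, and -0.61, SE 0.06, adjusted p = 4.83e-12). Hmmr (gene ID 25460), a spindle pole protein also known as a hyaluronan receptor, had 304 and 297 CPM in PVDF@PDA, 308 and 268 in PCL@PDA and 400.1 and 393 in Control (-0.40, SE 0.06, adjusted p = 2.62e-07, and -0.46, SE 0.06, adjusted p = 6.21e-09).

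The 5 others of this class fell as well. Aspm, a spindle pole protein known from microcephaly, had -0.51 with PVDF@PDA and -0.55 with PCL@PDA (adjusted p = 1.27e-06 and 1.89e-07), and Ckap2, a microtubule stabiliser, had -0.39 and -0.45 (adjusted p = 0.00100 and 0.000122). Cep55, which recruits the abscission machinery to the midbody, had -0.30 and -0.40 (adjusted p = 0.000589 and 7.69e-06). Dlgap5, a protein of kinetochore fibres, had -0.27 and -0.33 (adjusted p = 0.00144 and 0.000101). Racgap1, the partner of a midzone kinesin in centralspindlin, had -0.25 and -0.24 (adjusted p = 0.00188 and 0.00194), the smallest of the class in each comparison. With PVDF@PDA, Ckap2 and Racgap1 lost their calls without PVDF@PDA replicate 3 (adjusted p = 0.0586 and 0.146) and Dlgap5 without Control replicate 1 (0.0674).

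**Figure D3:**
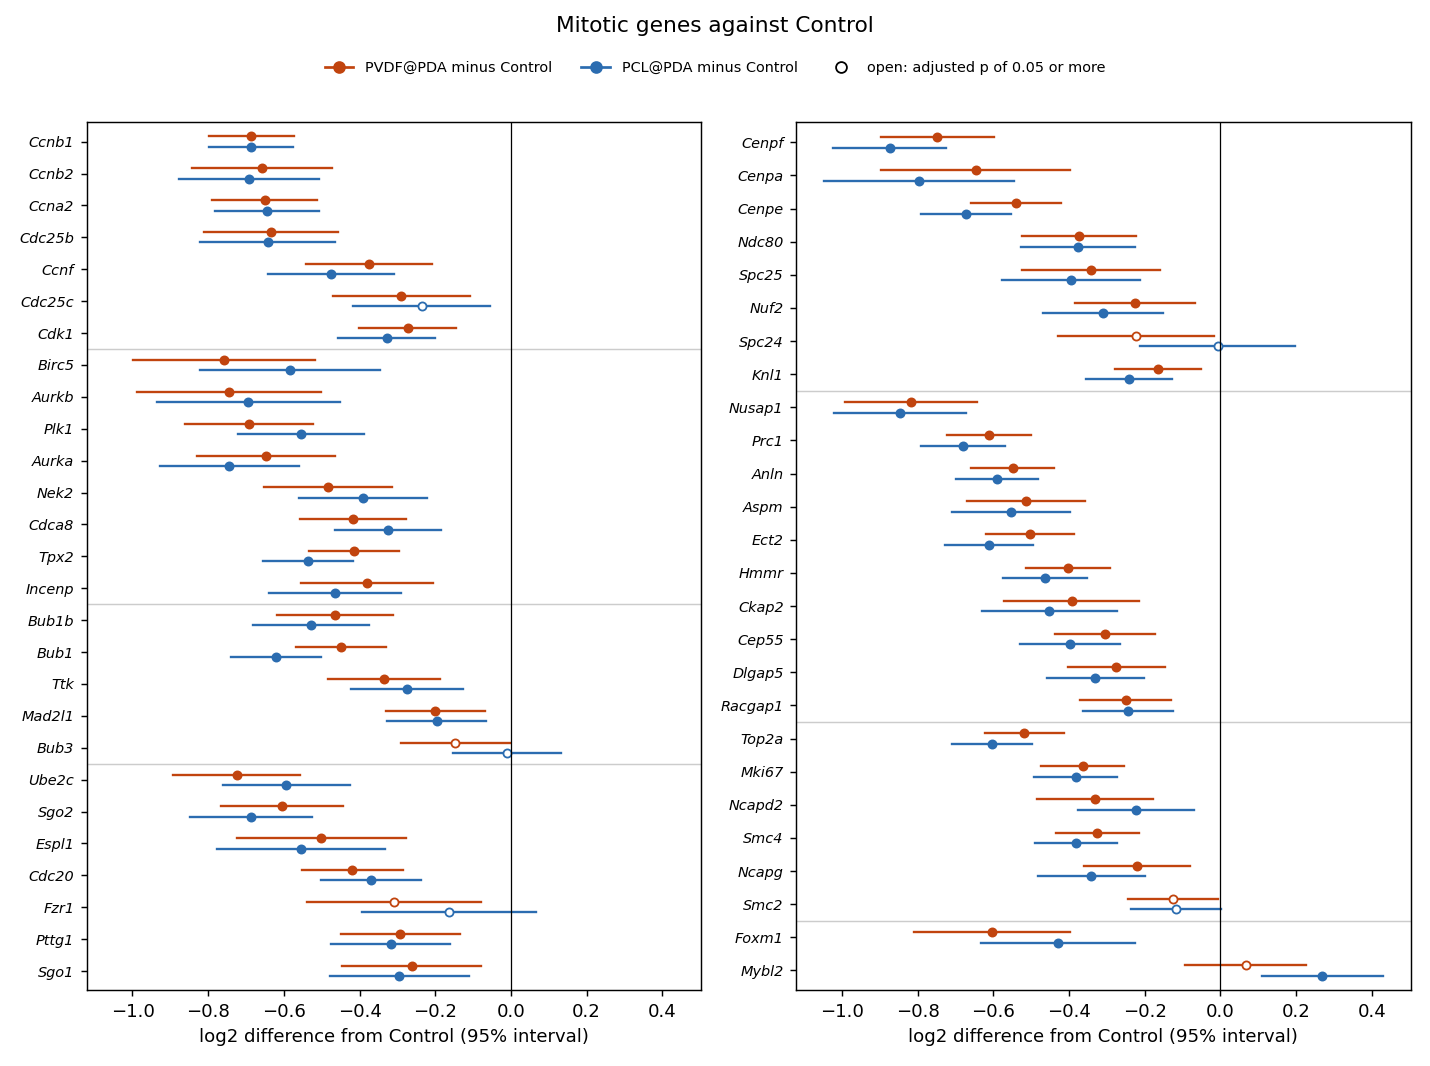
Log2 difference from Control (horizontal axis) of each of the 53 mitotic genes with PVDF@PDA (orange) and PCL@PDA (blue), with 95% intervals, genes grouped by role and filled points for an adjusted p below 0.05. All filled points lie below 0 except that of Mybl2 with PCL@PDA (0.27), and Fzr1, Bub3, Spc24 and Smc2 are open in both comparisons.

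Chromosome structure genes fell in 5 of 6 cases in each comparison, where 8.9% (PVDF@PDA) and 11.3% (PCL@PDA) of all tested genes fell. Top2a (gene ID 360243), the topoisomerase that untangles sister chromatids, was read at 389 and 396 CPM in PVDF@PDA, 388 and 352 in PCL@PDA and 561 and 563 in Control, with no overlap (-0.52, SE 0.05, adjusted p = 5.45e-11, and -0.60, SE 0.05, adjusted p = 3.35e-13). Mki67 (gene ID 291234), which coats mitotic chromosomes and serves as a marker of proliferating cells, stood at 324 and 318 CPM in PVDF@PDA, 334 and 299.97 in PCL@PDA and 428 and 398 in Control (-0.36, SE 0.05, adjusted p = 1.4e-06, and -0.38, SE 0.05, adjusted p = 3.62e-07). Ncapg (gene ID 305392), a subunit specific to condensin I, had 84.3 and 97.6 CPM in PVDF@PDA, 89.1 and 78.3 in PCL@PDA and 104 and 108 in Control (-0.22, SE 0.07, adjusted p = 0.0237, and -0.34, SE 0.07, adjusted p = 0.000286). The other condensin I subunit on the list, Ncapd2, had -0.33 (adjusted p = 0.00131) and -0.22 (adjusted p = 0.0294). Of the condensin ATPases, Smc4, with the highest FPKM of the 53 genes in Control (197 ± 10.7, SD, n = 2), fell (-0.32, adjusted p = 1.61e-05, and -0.38, adjusted p = 6.33e-07), and its partner Smc2 was not called (-0.13, 95% interval -0.24 to -0.0065, adjusted p = 0.151, and -0.12, -0.24 to 0.0016, adjusted p = 0.168). A difference between these ATPases was not itself tested. Smc2 passed with PVDF@PDA without PCL@PDA replicate 1 (adjusted p = 0.0296) or replicate 3 (0.0278) and with PCL@PDA without PCL@PDA replicate 1 (-0.21, adjusted p = 0.00172). The PVDF@PDA call of Ncapg was lost with library totals alone (adjusted p = 0.0692) and without PVDF@PDA replicate 1 (-0.12, adjusted p = 0.452), Control replicate 1 (0.0515) or Control replicate 3 (0.157), and the gene overlaps Lcorl, which had a mean of 4050.2 counts per library. The PCL@PDA call of Ncapd2 was lost with library totals alone (0.0895) and without PCL@PDA replicate 1 (0.0797), Control replicate 1 (0.128) or Control replicate 3 (0.158).

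Of the transcription factors of the programme Foxm1 fell in each comparison and Mybl2 in neither. Foxm1 (gene ID 58921), the forkhead factor that drives G2 and M phase genes, stood at 23.7 and 23.2 CPM in PVDF@PDA, 24.8 and 28.1 in PCL@PDA and 33.6 and 37.6 in Control. It fell in both comparisons with no overlap (-0.60, SE 0.10, adjusted p = 1.37e-05, and -0.43, SE 0.10, adjusted p = 0.00134), though its PCL@PDA call was lost without Control replicate 3 (-0.35, adjusted p = 0.0622). Mybl2 (gene ID 296344), the B-Myb factor that joins the MuvB complex in S phase, stood at 51.6 and 48.9 CPM in PVDF@PDA, 56.8 and 58.8 in PCL@PDA and 49.5 and 46.4 in Control. PVDF@PDA overlapped Control (0.07, 95% interval -0.09 to 0.23, adjusted p = 0.632), and both PCL@PDA libraries lay above it (0.27, SE 0.08, adjusted p = 0.0105). Without Control replicate 3 that rise was not called (0.22, adjusted p = 0.155). Within each library, Mybl2 had 2.18 and 2.11 counts per count of Foxm1 in PVDF@PDA, 2.29 and 2.09 in PCL@PDA and 1.47 and 1.23 in Control, a ratio that was higher in every material library than in either Control library. Foxm1 overlaps Tex52, which had a mean of 68.7 counts per library.

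PVDF@PDA against PCL@PDA compares the piezoelectric material with the non-piezoelectric one, and 0 of the 53 genes were called there. PVDF and PCL are different polymers, so in this comparison piezoelectricity cannot be told apart from other differences between them. Over all tested genes, 0.0538% were called higher and 0.00768% lower with PVDF@PDA. By edgeR 5 of the 53 had an unadjusted p below 0.05, as did 1105 of all 13018 genes tested. DESeq2 called 0 of the 53 with 3 below it, against 797 below it over all genes. The median log2 difference of the 53 genes was 0.04, against 0.00 over all genes. Bub1 had the smallest p, with 127 and 125 CPM in PVDF@PDA against 115 and 108 CPM in PCL@PDA (0.17, SE 0.06, unadjusted p = 0.00601, adjusted p = 0.412). It was higher with PVDF@PDA in both libraries. Mybl2 came next, with 51.6 and 48.9 CPM in PVDF@PDA against 56.8 and 58.8 CPM in PCL@PDA and no overlap (-0.20, SE 0.08, unadjusted p = 0.0135, adjusted p = 0.453). The other 8 of the 10 smallest p were those of Cenpe (0.13), Spc24 (-0.22), Tpx2 (0.12), Bub3 (-0.14), Ect2 (0.11), Ncapg (0.12), Foxm1 (-0.17) and Cenpf (0.13), with adjusted p-values between 0.531 and 0.658.

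A missed threshold does not show that the materials act alike. The intervals rest on 2 libraries per group and a spread shared by all groups. The PCL@PDA pair spread more than the other pairs, so these intervals do not bound a difference between the materials. At 95%, intervals stayed within 0.25 log2 units of 0 for 33 of the 53 genes, within 0.3 for 45 and within 0.5 for all 53. Within batch 1 the median difference of the 53 genes was -0.03, and within batch 3 it was 0.10, with the same sign in both batches for 26 genes. The result changed with the PCL@PDA library left out. Without PCL@PDA replicate 1 the median difference of the 53 genes was 0.07. That fit leaves PCL@PDA with 1 library, so sizes alone are given. The 8 genes of smallest p there were Tpx2 (0.23), Cenpf (0.29), Cenpe (0.22), Bub1 (0.22), Smc4 (0.16), Top2a (0.16), Hmmr (0.16) and Ncapg (0.22). Without PCL@PDA replicate 3 instead, the median was -0.03. The same genes then had 0.02 (Tpx2), -0.02 (Cenpf), 0.05 (Cenpe), 0.13 (Bub1), -0.04 (Smc4), 0.02 (Top2a), -0.03 (Hmmr) and 0.03 (Ncapg). In that setting 32 of the 53 differences were below 0, against 19 with all libraries. PCL@PDA replicate 3 had the lowest CPM of all 6 libraries for each of these 8 genes. This follows largely from the choice of genes, which were picked with that library as the only one of PCL@PDA.

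**Figure D4:**
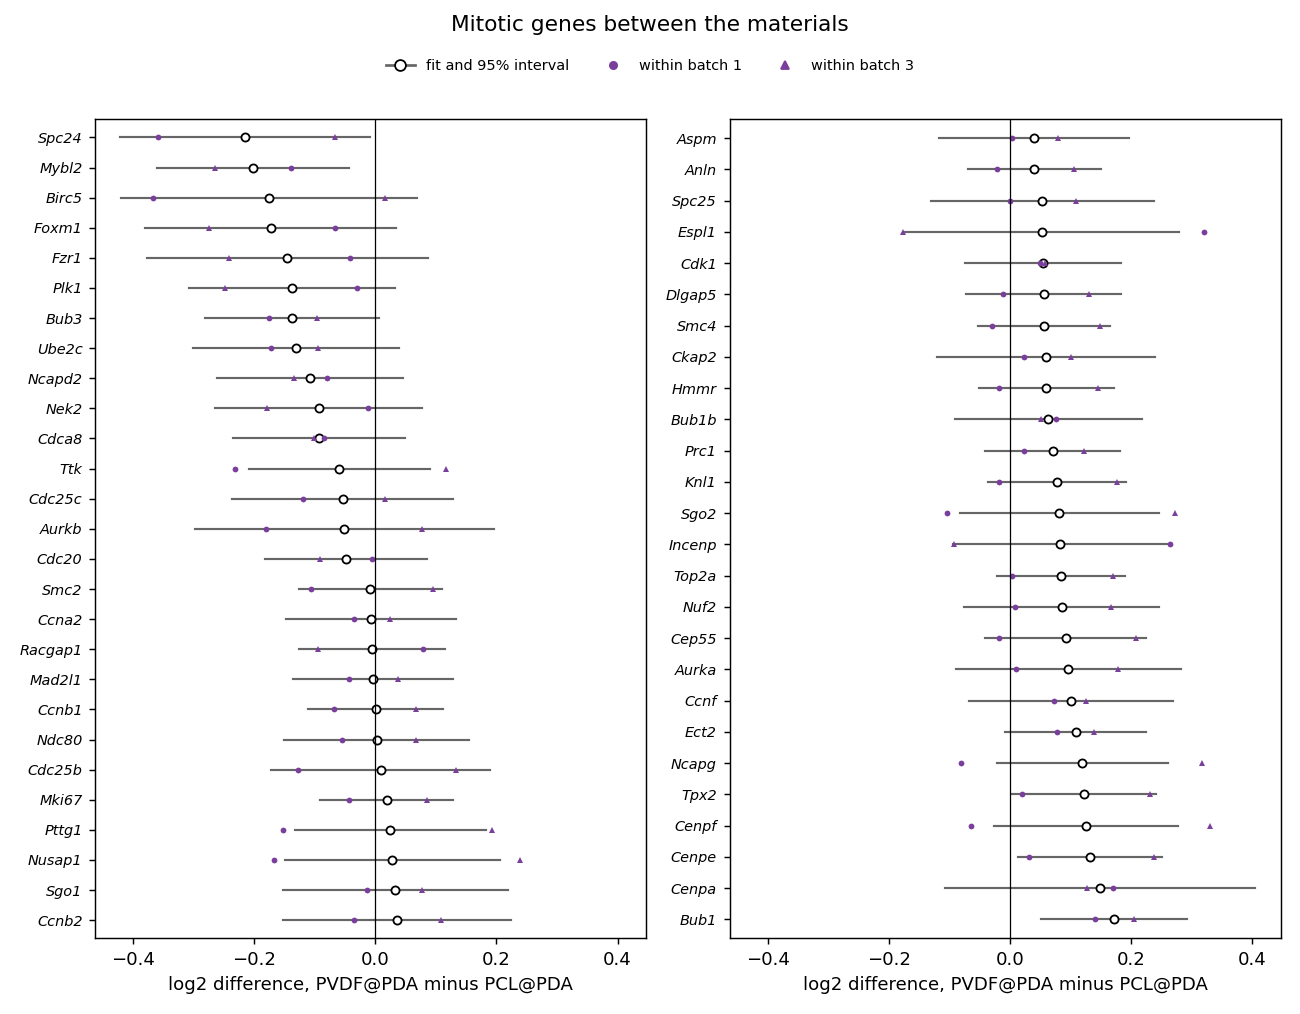
Log2 difference of PVDF@PDA minus PCL@PDA (horizontal axis) for each of the 53 mitotic genes in order of the difference, with open points and lines for the fit and its 95% interval, filled circles for batch 1 and filled triangles for batch 3. The fitted differences spread on both sides of 0, between -0.22 (Spc24) and 0.17 (Bub1), and the triangles lie to the right of the circles for most genes in the right-hand panel, with batch values as far out as -0.37 (Birc5, batch 1) and 0.33 (Cenpf, batch 3).

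Other parts of the cell cycle machinery were counted beside these genes. Over all tested genes 8.9% were called lower and 6.79% higher with PVDF@PDA, and 11.3% lower and 8.77% higher with PCL@PDA. Among 32 other kinetochore and centromere proteins 11 fell and 2 rose in each comparison, with median log2 differences of -0.18 with PVDF@PDA and -0.14 with PCL@PDA. Ska1, which helps kinetochores hold microtubule ends, had 18.7 and 23.0 CPM in PVDF@PDA, 21.3 and 18.2 in PCL@PDA and 32.5 and 34.3 in Control (-0.68, adjusted p = 8.33e-06, and -0.76, adjusted p = 7.56e-07). Of the 16 anaphase-promoting complex genes 1 fell with PVDF@PDA and 2 with PCL@PDA, near the shares over all tested genes. Fbxo5, the inhibitor Emi1 of that complex, was called in each comparison (-0.50, adjusted p = 0.00184, and -0.64, adjusted p = 6.03e-05), and Cdc27, a core subunit, fell with PCL@PDA (-0.25, adjusted p = 0.000803). Without PVDF@PDA replicate 3, Fbxo5 was not called with PVDF@PDA (-0.31, adjusted p = 0.210). Without Control replicate 1 the other kinetochore list had 7 lower calls in each comparison. Its 2 higher calls with PVDF@PDA became 0 without PVDF@PDA replicate 1 or Control replicate 3 and 1 without PVDF@PDA replicate 3 or Control replicate 1, and those with PCL@PDA became 1 without either Control library. The count of the anaphase-promoting complex genes with PVDF@PDA was 0 without PVDF@PDA replicate 3 and 2 without either PCL@PDA library.

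The shares of all tested genes to set beside the next lists are 8.9% lower and 6.79% higher with PVDF@PDA. With PCL@PDA they are 11.3% lower and 8.77% higher. Of 14 genes of cohesin and its regulators PVDF@PDA had 1 that fell, near the share over all genes, and PCL@PDA had 6. Rad21, the subunit that separase cuts, was at -0.24 (adjusted p = 0.00111) and -0.32 (adjusted p = 1.1e-05). Without Control replicate 1 the PCL@PDA count of that list was 2, and without either PCL@PDA library its PVDF@PDA count was 2, with 1 gene called higher. Without PCL@PDA replicate 3, 1 was called higher with PCL@PDA. Of the 3 condensin II genes 0 were called in either comparison, with 2 and 1 at an unadjusted p below 0.05. At that level stood 3671 of all 13018 tested genes with PVDF@PDA and 4036 with PCL@PDA. Of 13 brakes, phosphatases and other regulators of mitotic entry 3 fell with PVDF@PDA, and 4 fell and 1 rose with PCL@PDA. DESeq2 called 0 of them higher with PCL@PDA. Without PCL@PDA replicate 3 the PVDF@PDA count was 5, and the higher calls with PCL@PDA were 0 without Control replicate 3 and 2 without PCL@PDA replicate 1. Bora, the Aurora A cofactor that lets it activate Plk1, had 18.8 and 18.9 CPM in PVDF@PDA, 19.3 and 19.8 in PCL@PDA and 27.6 and 29.4 in Control (-0.60, adjusted p = 5.91e-05, and -0.54, adjusted p = 0.000197). Mastl, the Greatwall kinase that holds back a phosphatase opposing CDK1, fell less (-0.33, adjusted p = 0.000226, and -0.48, adjusted p = 2.07e-07). Among 14 G1 cyclins, CDKs and their partners 2 rose and 3 fell with PVDF@PDA, and 3 rose and 2 fell with PCL@PDA. Higher calls numbered 1 with PVDF@PDA without either PVDF@PDA library or Control replicate 1, and 1 with PCL@PDA without Control replicate 1. With PCL@PDA there were 4 lower calls without PCL@PDA replicate 1 and 5 higher calls with library totals alone. Cks2, a small subunit that docks on CDK1, had -0.62 (adjusted p = 5.62e-06) and -0.57 (adjusted p = 1.58e-05), Cdk6, a kinase of early G1, had -0.41 (adjusted p = 2.06e-08) and -0.38 (adjusted p = 1.19e-07), and Ccne2, an E-type cyclin of S phase entry, had 0.57 (adjusted p = 1.57e-05) and 0.53 (adjusted p = 4.44e-05).

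Most genes of replication origins and forks were higher in the material conditions. Of 34 such genes 22 rose and 1 fell with PVDF@PDA, and 24 rose and 0 fell with PCL@PDA, with medians of 0.34 and 0.41. Of all tested genes 6.79% were called higher and 8.9% lower with PVDF@PDA, and 8.77% higher and 11.3% lower with PCL@PDA. Mcm4, a subunit of the replicative helicase, had 262 and 259.5 CPM in PVDF@PDA, 279 and 271 in PCL@PDA and 181 and 188 in Control (0.50, adjusted p = 5.39e-10, and 0.57, adjusted p = 4.76e-12). Mcm7, another such subunit, had 108 and 96.7 CPM in PVDF@PDA, 107 and 118 in PCL@PDA and 72.8 and 67.6 in Control (0.54, adjusted p = 3.3e-08, and 0.68, adjusted p = 5.73e-11). All material libraries lay above both Control libraries for these genes. With any one of the 4 PVDF@PDA and Control libraries left out, 0 replication genes were called lower with PVDF@PDA. The summed level of the 34 genes was 2344 and 2231 CPM in PVDF@PDA, 2392 and 2454 in PCL@PDA and 1841 and 1845 in Control, while that of the 53 mitotic genes was 5517 and 5532 in PVDF@PDA, 5607 and 5145 in PCL@PDA and 7454 and 7295 in Control. Of 21 genes of the DREAM complex, the RB family and E2F 4 rose and 2 fell with PVDF@PDA, and 6 rose and 2 fell with PCL@PDA. Leaving out PVDF@PDA replicate 1 left 1 higher and 0 lower calls in the PVDF@PDA comparison, where leaving out PVDF@PDA replicate 3 or either Control library left 2 higher calls and either Control library 1 lower call. In the PCL@PDA comparison 2 higher calls were left without either Control library and 3 without PCL@PDA replicate 1, and 1 lower call without Control replicate 1. E2f1, an activator of S phase genes, had 28.5 and 29.5 CPM in PVDF@PDA, 30.3 and 32.0 in PCL@PDA and 19.3 and 21.0 in Control (0.52, adjusted p = 0.000200, and 0.62, adjusted p = 7.89e-06), and E2f5, which belongs to the repressive arm of the family, fell (-0.35, adjusted p = 0.00206, and -0.37, adjusted p = 0.000780). E2f5 was not called with PVDF@PDA without PVDF@PDA replicate 1 (0.0627) or Control replicate 3 (0.0680).

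**Figure D5:**
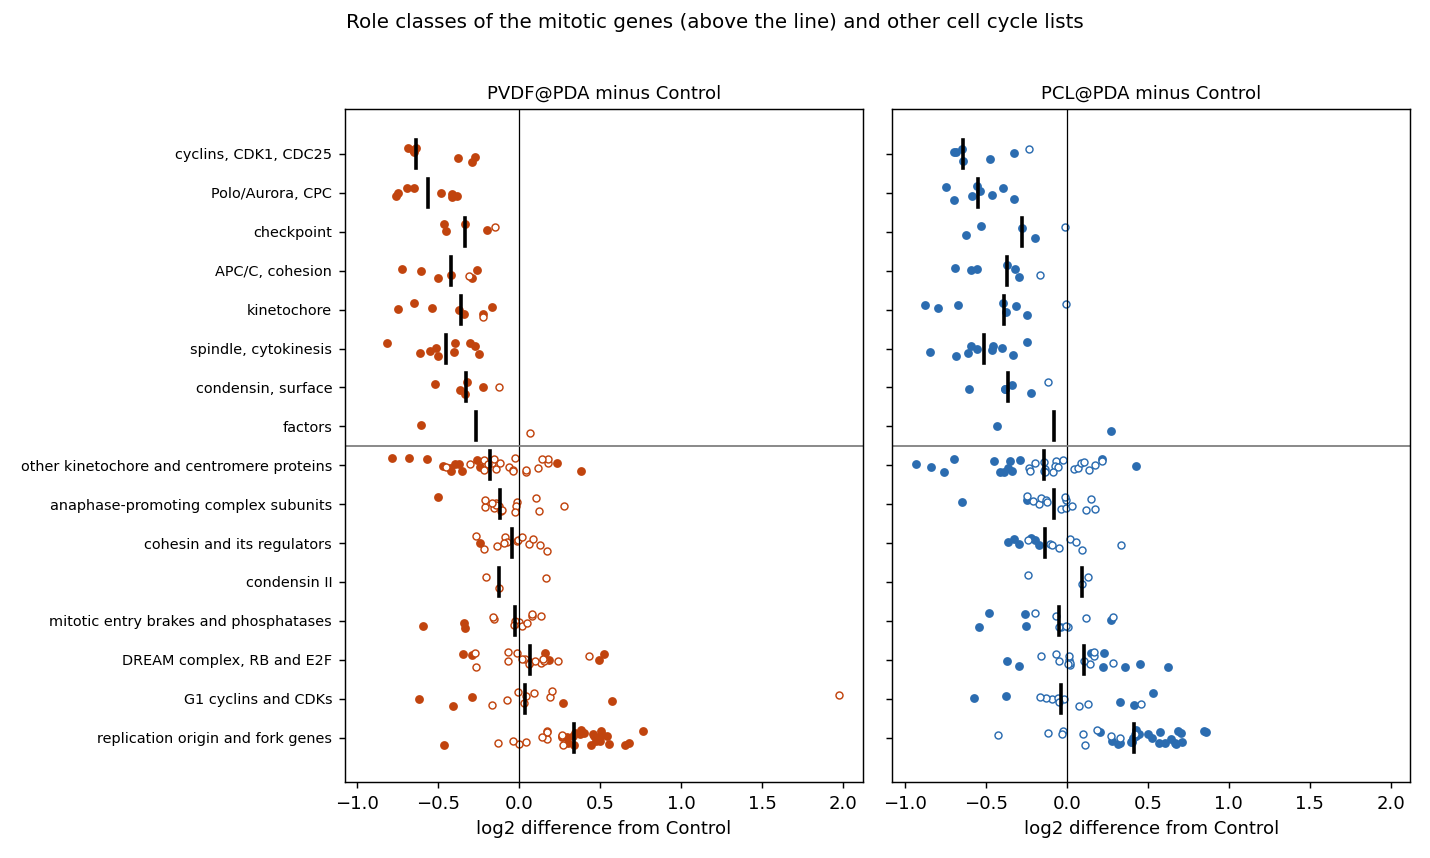
Log2 difference from Control (horizontal axes) of the genes of each role class of the mitotic genes (above the grey line) and of each other cell cycle list (below it), with PVDF@PDA left and PCL@PDA right, black bars for the median and filled points for an adjusted p below 0.05. The medians of the first 7 mitotic classes lie between -0.64 and -0.27, and those of the replication genes lie at 0.34 and 0.41.

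Promoter letters were also set beside the differences. Among the 45 genes with a promoter, the 25 with TTTGAA had a median log2 difference of -0.39 with PVDF@PDA and -0.40 with PCL@PDA, and the 20 without it had -0.41 and -0.38. The 34 with CCAAT had medians of -0.41 with PVDF@PDA and -0.42 with PCL@PDA, and the 11 without it had -0.31 and -0.38. These splits were not tested. In the replication list 2 of 28 promoters (7.1%) held TTTGAA, and 19 (67.9%) held CCAAT. E2F letters, searched as TTTCCCGC, TTTCGCGC, TTTGCCGC or TTTGGCGC on both strands, stood in 8 of the 28 (28.6%), in 1 of the 45 mitotic promoters (2.2%) and in 2.3% of all promoters.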

How the data were processed

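Bulk RNA-seq of 6 libraries was used as deposited. The authors' read counts per gene were taken from the deposited count table. Their FPKM values, counts scaled per length and depth, were deposited separately for each library. The libraries called replicate 3 here are titled A3, B3 and C3, while their deposited columns are named A2, B2 and C2. RNA was column-purified with DNase treatment, per the labels' protocols. The submitters' processing notes name DESeq2 1.4.5 and the build mRatBN7.2 without a role. Which aligner, counter and strand setting were used is not given in the sources used here.

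Counts were scaled with TMM, filtered with filterByExpr (13018 of 16849 genes kept) and tested with edgeR 4.0.16 in R 4.3.3 (robust quasi-likelihood fit, 3 group means, 6 libraries, 3 residual degrees of freedom before moderation). A call needs an adjusted p below 0.05 (Benjamini-Hochberg, over every gene tested). The biological coefficient of variation was 6.47%. SE is the log2 difference over the root of F, and intervals are 95%. Checks used limma 3.58.1 on log2(FPKM + 1) and log2(FPKM + 0.1), DESeq2 1.42.0, other scalings and filters, each library left out and the batch as a replicate block. The script was tested on simulated data.

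The labels give a batch number, so equal replicate numbers pair libraries. Deviations from the group means correlated at -0.021 between the materials, at 0.043 between PVDF@PDA and Control and at 0.13 between PCL@PDA and Control. Nothing in the labels says that replicates are separate cultures, so the p-values reflect only how far these samples spread, possibly for technical reasons. All 53 genes could be named. Values per library are given for a fixed set of well-known ones and for those among the 10 smallest p of a comparison, and other lists are named by their 3 smallest p. The list of 54 genes and the other lists are lists of names, and all were drawn up with earlier results of these data known. Detection was taken as 3 counts, which covers counting error only. A few genes are not reported here.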

Additional observations from a re-analysis of the deposited data

How the results depend on the processing

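Across 16 settings, 31 of the 53 genes were called lower with PVDF@PDA in every one and 34 with PCL@PDA. Lower calls numbered 45 and 47 with DESeq2, 32 and 34 with limma on log2(FPKM + 1), 33 and 35 with limma on log2(FPKM + 0.1), 39 to 50 (PVDF@PDA) and 42 to 48 (PCL@PDA) with 1 library left out, and 49 and 48 with the replicate block. Lower calls over all genes changed too, from 1158 with PVDF@PDA and 1474 with PCL@PDA in the main test. They were 1021 and 1337 with DESeq2 and 1452 and 1709 with the replicate block. With limma they were 441 and 578 on log2(FPKM + 1) and 476 and 607 on log2(FPKM + 0.1). The block passed Fzr1 with PVDF@PDA (adjusted p = 0.0347) and Cdc25c with PCL@PDA (0.0383) and changed no other call of the 53 genes. Under both limma settings Mad2l1, Ttk, Pttg1, Espl1, Sgo1, Ndc80, Nuf2, Knl1, Racgap1, Ncapd2 and Ncapg lost their calls in each comparison. Some other genes lost a call in 1 comparison or setting. DESeq2 did not call Sgo1 (adjusted p = 0.0679), Nuf2 (0.0921) or Ncapg (0.0672) with PVDF@PDA.

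Over all genes, calls with PVDF@PDA against Control (2042 in the main test) were 926 and 997 with limma and 1031 to 2869 with 1 library left out. Those with PCL@PDA against Control (2616) were 1366 and 1447, and 1346 to 3173. Between the materials (8) they were 5 with library totals, 17 without a filter, 59 with the replicate block (0 of the 53 genes), 5 with DESeq2, 0 with limma at either pseudocount (971 and 962 genes at an unadjusted p below 0.05) and 0 to 827 with 1 library left out, where 0 to 8 of the 53 genes were called higher and the median difference of the 53 turned to -0.03 without PCL@PDA replicate 3 (0.04 with all libraries). With 1 library left out 0 to 1 of the 53 were called higher with PCL@PDA.

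Against Control, and between the materials among the 10 genes of smallest p, the signs that turned were those of Bub3 with PCL@PDA (0.0326 with library totals, 0.0329 and 0.0335 with limma at the larger and smaller pseudocount, -0.0685 to 0.0488 with 1 library left out), Spc24 with PCL@PDA (0.0347, 0.0307, 0.0316 and -0.1125 to 0.086 in the same settings) and Cenpf between the materials (-0.0176 to 0.2858 with 1 library left out). The causes were not tested. A group left with 1 library was assumed to vary like the others. The alternatives for the other cell cycle lists were chosen after seeing the data. There, 16 to 24 replication genes rose with PVDF@PDA and 20 to 28 with PCL@PDA, and 5 to 11 and 6 to 11 other kinetochore genes fell. The SE of a log2 difference was larger for genes of few counts, such as Cenpa (0.12 with PVDF@PDA), than for those of many, such as Smc4 (0.05).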
